A study of Mus musculus with 6 samples.

Results

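The nuclear genome of the mouse encodes most subunits of mitochondrial respiratory complexes I to IV, and 39 of these genes were followed in obstructed kidneys of Cd248 knockout and wild type mice. The members were taken by gene symbol: 19 subunits of complex I, 4 of complex II, 6 of complex III and 10 of complex IV. All 39 were found, each on 1 row, among the 33679 genes of the deposited table. Every kidney, in both groups, had undergone unilateral ureteral obstruction, a model in which urine outflow on a side is blocked and fibrosis follows. The labels give the genotypes as Cd248 KO and wild type, and the tissue as kidney. The labels name no strain, age, sex or time after surgery, and do not say in which cells Cd248 was deleted. The labels list 3 samples a genotype, and 4 of these 6 were used: all 3 of wild type and the first of the knockout. The other 2 knockout samples were not analysed here. The labels' protocols speak of pooled RNA and do not say that replicates came from separate animals, so the spread between libraries may be technical.

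The respiratory chain sits in the inner mitochondrial membrane. Complex I takes electrons from NADH and complex II takes them from succinate, ubiquinone carries them to complex III, and cytochrome c carries them to complex IV, which reduces oxygen. Complexes I, III and IV pump protons as they do so, and ATP synthase uses the resulting gradient. A few core subunits of complexes I, III and IV are made from the mitochondrial genome, and all other subunits come from nuclear genes. In the kidney the proximal tubule is dense in mitochondria, because the reabsorption of solutes consumes much ATP.

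Transcription of nuclear respiratory genes is classically tied to the factors NRF1 and GABPA (nuclear respiratory factors), with ESRRA, YY1 and SP1 named beside them. RefSeq promoter windows (GRCm38.p6, 250 bases before to 50 after the start) were at hand for 30 of the 39 members, in 31 windows. Letters of each factor's known motif were searched on both strands. The NRF1 letters (GCGC, any base, then TGCGC) stood in 8 of the 31 member windows (25.8%) and in 4.60% of all 32851 windows. Both windows of Ndufa5 were among these 8. The GABPA letters CCGGAAG stood in 8 of 31 (25.8%) and in 8.86% of all windows. YY1 letters AAGATGGC were in 4 of 31 (12.9%) against 2.75% of all windows, SP1 letters GGGCGG in 15 (48.4%) against 35.7%, and ESRRA letters AAGGTCA in 1 (3.23%) against 4.72%. Over windows of tested genes the shares were 8.88% for NRF1, 15.9% for GABPA, 3.98% for YY1, 59.4% for SP1 and 3.47% for ESRRA. A match describes letters and shows no binding. The 2 stretches below are the parts before the start and outside annotated exons that hold NRF1 or GABPA letters in full, in the member with the largest difference of its complex among those that have such a stretch. Complexes I and II had none. Capitals mark the matches. The Cox6a1 stretch (chr5:115348982-115349129, minus strand) holds the NRF1 letters at 2 places, 162 and 117 bases before the RefSeq start, the second on the opposite strand. The Uqcrh stretch (chr4:116075072-116075268, minus strand) holds the GABPA letters, as their reverse complement, 10 bases before the start.
Cox6a1: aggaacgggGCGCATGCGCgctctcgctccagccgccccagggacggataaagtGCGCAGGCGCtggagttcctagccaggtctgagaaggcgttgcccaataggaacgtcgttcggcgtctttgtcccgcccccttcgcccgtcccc
Uqcrh: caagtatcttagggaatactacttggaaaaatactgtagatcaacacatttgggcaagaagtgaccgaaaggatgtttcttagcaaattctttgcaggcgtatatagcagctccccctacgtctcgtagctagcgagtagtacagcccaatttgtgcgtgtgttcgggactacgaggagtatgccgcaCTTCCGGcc

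Values are FPKM, fragment counts corrected for transcript length and library size, as the authors deposited them, and read depth is unknown. Summed FPKM ranged from 267390 to 285320 in the wild type libraries and was 304430 in the knockout library, and immunoglobulin genes made up 5.98% of the knockout sum against 0.113% to 0.202%. Cd248, the deleted gene, was listed at 0 FPKM in the knockout and 9.03, 9.57 and 8.78 FPKM across wild type replicates 1 to 3. All 39 members passed the filter of a mean of at least 0.5 FPKM, as did 16871 genes in all. Differences are on the log2(FPKM + 1) scale, knockout minus wild type mean. Each was tested with limma over all 16871 genes, two-sided, with Benjamini-Hochberg adjustment and a threshold of 0.05. Only wild type libraries inform the spread, so the test takes the single knockout value to be as variable as theirs.

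The 39 subunit mRNAs were slightly higher in the knockout library, and none passed the test. Their median level was 1.15 times the wild type mean, from 1.01 for Ndufa6 to 1.26 for Ndufa2. As deposited, all 39 differences were positive (48.6% of all tested genes), with a median of 0.20 against -0.01 over all tested genes, but 4 turned negative when libraries were scaled to equal FPKM totals and 4 under quantile normalization. In 34 of the 39 the knockout library lay above every wild type library, which held for 28.0% of all tested genes, and in 0 it lay below every one. By limma 0 of 39 members passed, against 0.723% of all tested genes (0.64% higher and 0.083% lower). At an unadjusted p under 0.05 stood 1 of 39 members, Ndufa2, against 10.8% of all tested genes. The lowest adjusted p among members was 0.439, for Ndufa2. The median limma SE of a member was 0.12, so that a difference of the median size was smaller than 2 SE (95% intervals reached from -0.52 to 0.76 over all members, and that of 1 member lay above 0). With 1 library against 3, an exact permutation test of a single gene cannot give a p under 0.25. The authors' deposited table marked 0 members significant. Member fold changes in the authors' deposited table ran from 1.01 to 1.26, the lowest p-value was 0.09 and the lowest q-value 0.78.

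**Figure D1:**
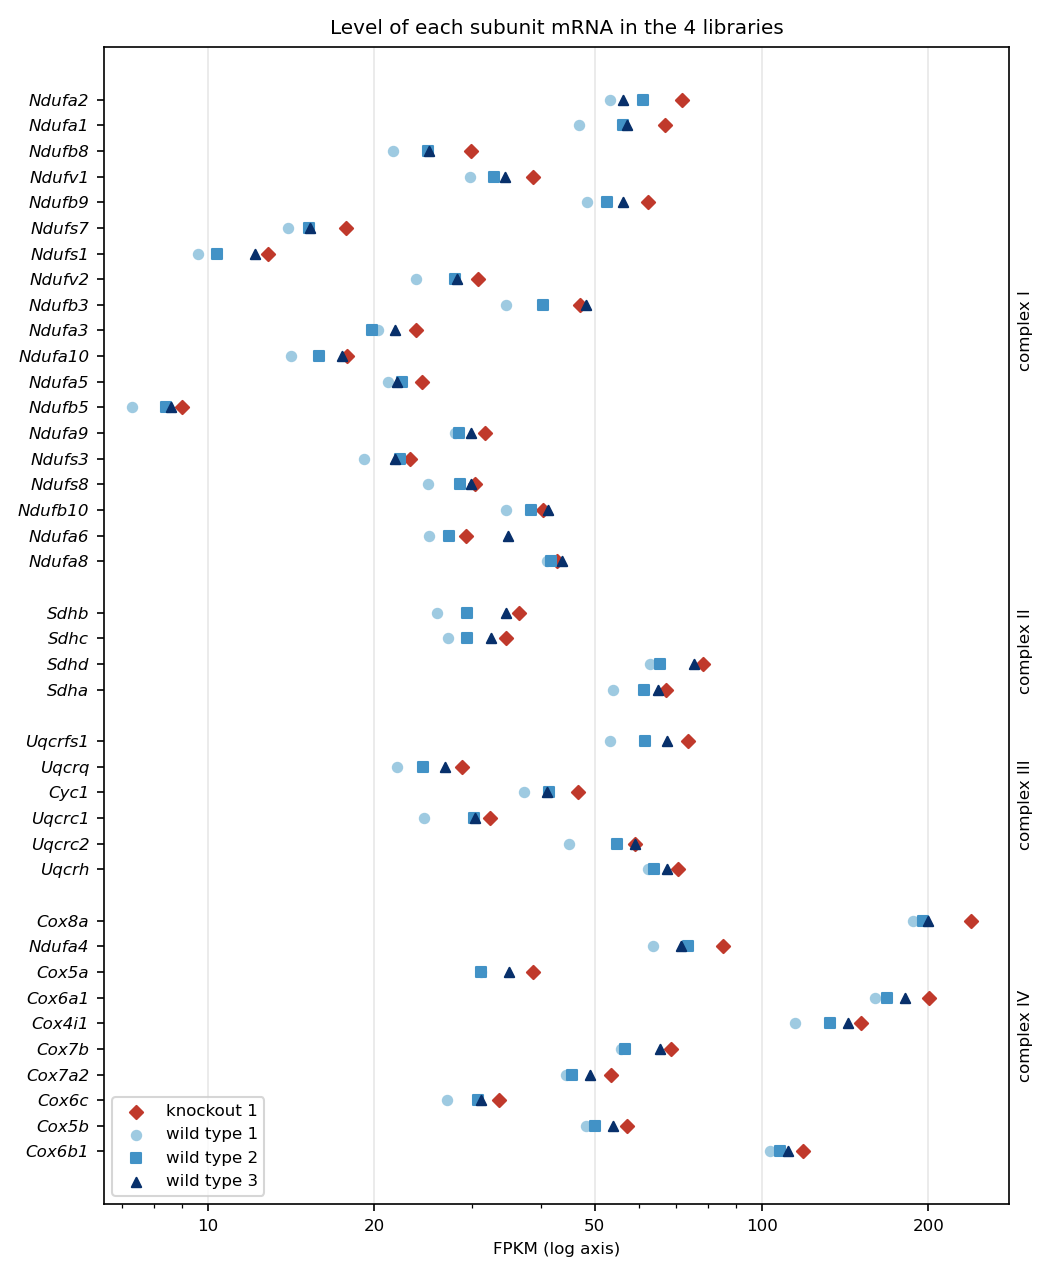
FPKM on a log axis of each of the 39 subunit mRNAs, by complex, in the knockout library (diamond) and in wild type replicates 1 (circle), 2 (square) and 3 (triangle). The knockout point lies right of all wild type points for 34 members (17 with the same FPKM total), and wild type replicate 1 is lowest for 37.

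As deposited, the medians of the complexes were close to each other. The median difference was 0.20 for the 19 members of complex I, 0.21 for the 4 of complex II, 0.21 for the 6 of complex III and 0.21 for the 10 of complex IV. With the same FPKM total these medians were 0.067, 0.0796, 0.0743 and 0.0795, and under quantile normalization 0.145, 0.139, 0.128 and 0.0907. As deposited, the knockout library lay above every wild type library for 15 of 19, 4 of 4, 5 of 6 and 10 of 10 members, against 28.0% of all tested genes. With the same FPKM total this held for 17 of the 39 members and 13.8% of all tested genes. The order of members by level was nearly the same in all libraries, with Spearman's rho across the 39 members between 0.984 and 0.995 for the knockout library against each wild type library and between 0.986 and 0.989 among wild type libraries. These coefficients describe members, which are not replicates. Levels themselves spanned a wide range, from Ndufb5 at 8.10 ± 0.69 FPKM (SD, n = 3 wild type libraries) to Cox8a at 194 ± 6.19 FPKM, and the members ranked between the 64.9th and the 99.4th percentile of tested genes. The median level of a complex in the wild type libraries was 24.95 to 29.8 FPKM for complex I, 40.5 to 49.8 for complex II, 41.1 to 50.1 for complex III and 59.7 to 68.6 for complex IV. In the knockout library these medians were 30.4, 51.9, 52.9 and 76.8 FPKM.

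Complex I, the NADH dehydrogenase, was represented by 6 subunits of its catalytic core and 13 accessory ones. Among the core subunits are those that carry the flavin and iron-sulfur clusters through which electrons pass. As deposited, all 6 lay above every wild type library (28.0% of all tested genes) with a median difference of 0.22. With the same FPKM total their differences ran from 0.001 for Ndufs8 to 0.124 for Ndufv1. Ndufs1, the largest core subunit with several iron-sulfur clusters, was at 12.8 FPKM in the knockout and 9.61, 10.4 and 12.2 FPKM across wild type replicates 1 to 3. The knockout value and that of replicate 3 were close, and replicates 1 and 2 were lower (0.24, SE 0.15, limma adjusted p = 0.620). Ndufv1, which binds the flavin and NADH, was at 38.8 FPKM against 29.7, 32.9 and 34.5 FPKM. Here the groups did not overlap (0.26, SE 0.11, limma adjusted p = 0.527). Ndufs7, a cluster-bearing subunit near the quinone site, was at 17.8 FPKM against 13.95, 15.3 and 15.3 FPKM, above a tight pair of replicates 2 and 3 (0.24, adjusted p = 0.483). Ndufv2, Ndufs3 and Ndufs8, further core subunits, were 1.15, 1.10 and 1.10 times the wild type mean.

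The accessory subunits of complex I spread more widely. Ndufa2, a small subunit of the peripheral arm, had the largest difference of all 39, at 71.8 FPKM in the knockout and 53.2, 61.0 and 56.2 FPKM across wild type replicates 1 to 3 (0.34, SE 0.11, limma adjusted p = 0.439). Its highest wild type library was replicate 2, unlike most members. Ndufa1, a short membrane-arm subunit encoded on the X chromosome (mm10, chromosome X, 37187588 to 37191163), was at 66.9 FPKM against 46.8, 56.3 and 57.1 FPKM (0.32, adjusted p = 0.531). Ndufb8, a membrane-arm subunit whose protein is often probed as a sign of assembled complex I, was at 29.9 FPKM against 21.6, 24.98 and 25.1 FPKM (0.32, adjusted p = 0.477). In both genes replicates 2 and 3 were close together, with the knockout value above them and replicate 1 below them. Ndufb9, Ndufa3, Ndufa10, Ndufa5, Ndufb5 and Ndufa9 as deposited also lay above every wild type library (28.0% of all tested genes), at 1.10 to 1.19 times the wild type mean. Ndufb5, the member with the lowest level, was at 9.0 FPKM against 7.31, 8.40 and 8.59 FPKM.

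In 4 accessory subunits of complex I the knockout library lay inside the wild type range, each time below replicate 3 and above replicates 1 and 2. Ndufa8, a subunit imported through the intermembrane space, was at 42.7 FPKM against 40.9, 41.6 and 43.7 FPKM, so that the 4 libraries were almost level (0.02, SE 0.09, limma adjusted p = 0.949). Ndufa6, a LYR-motif subunit that holds the mitochondrial acyl carrier protein, was at 29.3 FPKM against 25.1, 27.3 and 34.8 FPKM, and its wild type libraries varied the most of the 39 (0.02, SE 0.20, adjusted p = 0.979). Ndufb3 was at 46.9 FPKM against 34.6, 40.2 and 48.2 FPKM, and Ndufb10 at 40.3 FPKM against 34.6, 38.4 and 41.1 FPKM. The small positive differences of Ndufa6, Ndufa8 and Ndufb10 turned negative under equal FPKM totals (-0.11, -0.11 and -0.05) and under quantile normalization (-0.04, -0.08 and -0.02).

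Complex II, succinate dehydrogenase, has no subunit from the mitochondrial genome and is also an enzyme of the citric acid cycle. As deposited, all 4 of its subunits lay above every wild type library (28.0% of all tested genes), by a narrow margin over replicate 3. As a share of summed FPKM, the complex lay below replicate 3, at 0.0711% in the knockout against 0.0727%. With the same FPKM total the differences of Sdha, Sdhb, Sdhc and Sdhd were 0.03, 0.15, 0.09 and 0.07. Sdha, the flavoprotein that oxidizes succinate, was at 67.3 FPKM in the knockout and 53.8, 61.3 and 64.9 FPKM across wild type replicates 1 to 3 (0.17, SE 0.14, limma adjusted p = 0.705). Sdhb, the iron-sulfur subunit, was at 36.4 FPKM against 26.0, 29.4 and 34.6 FPKM and had the largest difference of this complex (0.28, SE 0.18, adjusted p = 0.632). Its wild type libraries were themselves far apart, lowest in replicate 1 and highest in replicate 3. Sdhc and Sdhd anchor the enzyme in the membrane and bind ubiquinone. Sdhc was at 34.6 FPKM against 27.2, 29.4 and 32.5 FPKM, and Sdhd at 78.3 FPKM against 62.9, 65.5 and 75.6 FPKM (0.22 and 0.20, adjusted p = 0.607 and 0.658). Both showed the same rank order of libraries as Sdha and Sdhb.

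Complex III passes electrons from ubiquinol to cytochrome c through cytochrome b, the Rieske protein and cytochrome c1. Uqcrfs1, the Rieske iron-sulfur protein, was at 73.6 FPKM in the knockout and 53.3, 61.5 and 67.4 FPKM across wild type replicates 1 to 3 (0.28, SE 0.16, limma adjusted p = 0.599). Cyc1, cytochrome c1, was at 46.7 FPKM against 37.3, 41.3 and 41.1 FPKM (0.22, SE 0.10, adjusted p = 0.529). For Cyc1 the margin over the highest wild type library exceeded the gap between replicates 2 and 3. The core proteins Uqcrc1 and Uqcrc2, related to mitochondrial processing peptidases, were at 32.3 FPKM against 24.6, 30.2 and 30.4 FPKM and at 59.2 FPKM against 45.0, 54.8 and 59.2 FPKM. Uqcrc2 was the 1 member of this complex inside the wild type range, level with replicate 3. Uqcrq, a small membrane subunit, was at 28.8 FPKM against 22.0, 24.5 and 26.9 FPKM. Uqcrh, the hinge protein that contacts cytochrome c1, was at 70.6 FPKM against 62.4, 63.9 and 67.6 FPKM, the smallest difference of the complex, and its sign turned with the same FPKM total (0.13 as deposited, -0.01 scaled).

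Complex IV, cytochrome c oxidase, has its catalytic centres in subunits made by the mitochondrial genome, so the 10 nuclear members are accessory and regulatory. As deposited, all 10 lay above every wild type library, against 28.0% of all tested genes. Cox8a, the ubiquitous form of subunit VIII (mm10, chromosome 19, 7215153 to 7217616), had the highest level of all members, at 239 FPKM in the knockout and 187, 195 and 200 FPKM across wild type replicates 1 to 3. The wild type values lay within a narrow band and the knockout value stood apart from it (0.30, SE 0.11, limma adjusted p = 0.467). Ndufa4, first counted with complex I and now placed in complex IV, was at 85.0 FPKM against 63.7, 73.6 and 71.6 FPKM (0.29, SE 0.12, adjusted p = 0.506). Cox4i1, the common isoform of a subunit through which ATP acts on the enzyme, was at 151 FPKM against 115, 133 and 143 FPKM, close above replicate 3 (0.22, SE 0.16, adjusted p = 0.677). Cox5a was at 38.7 FPKM against 31.2, 31.2 and 35.0 FPKM, and Cox6a1 at 200 FPKM against 160, 168 and 181 FPKM (0.25 and 0.24, adjusted p = 0.516 and 0.570). The difference of Cox6a1, whose promoter letters are printed above, was -0.000336 with quantile normalization. That of Cox8a was 0.086 with quantile normalization and 0.164 with the same FPKM total. Cox6b1, which faces cytochrome c, had the smallest difference of the complex, at 119 FPKM against 103, 108 and 111 FPKM (0.14, adjusted p = 0.673). Cox7b, Cox7a2, Cox6c and Cox5b lay between these, at 1.13 to 1.16 times the wild type mean. A pseudogene row named Cox5b-ps stood at 22.0 FPKM in the knockout and 15.9, 18.04 and 20.2 FPKM in wild type, and it may share reads with Cox5b, whose own values of 57.2 against 48.3, 49.97 and 53.9 FPKM are uncertain to that extent.

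**Figure D2:**
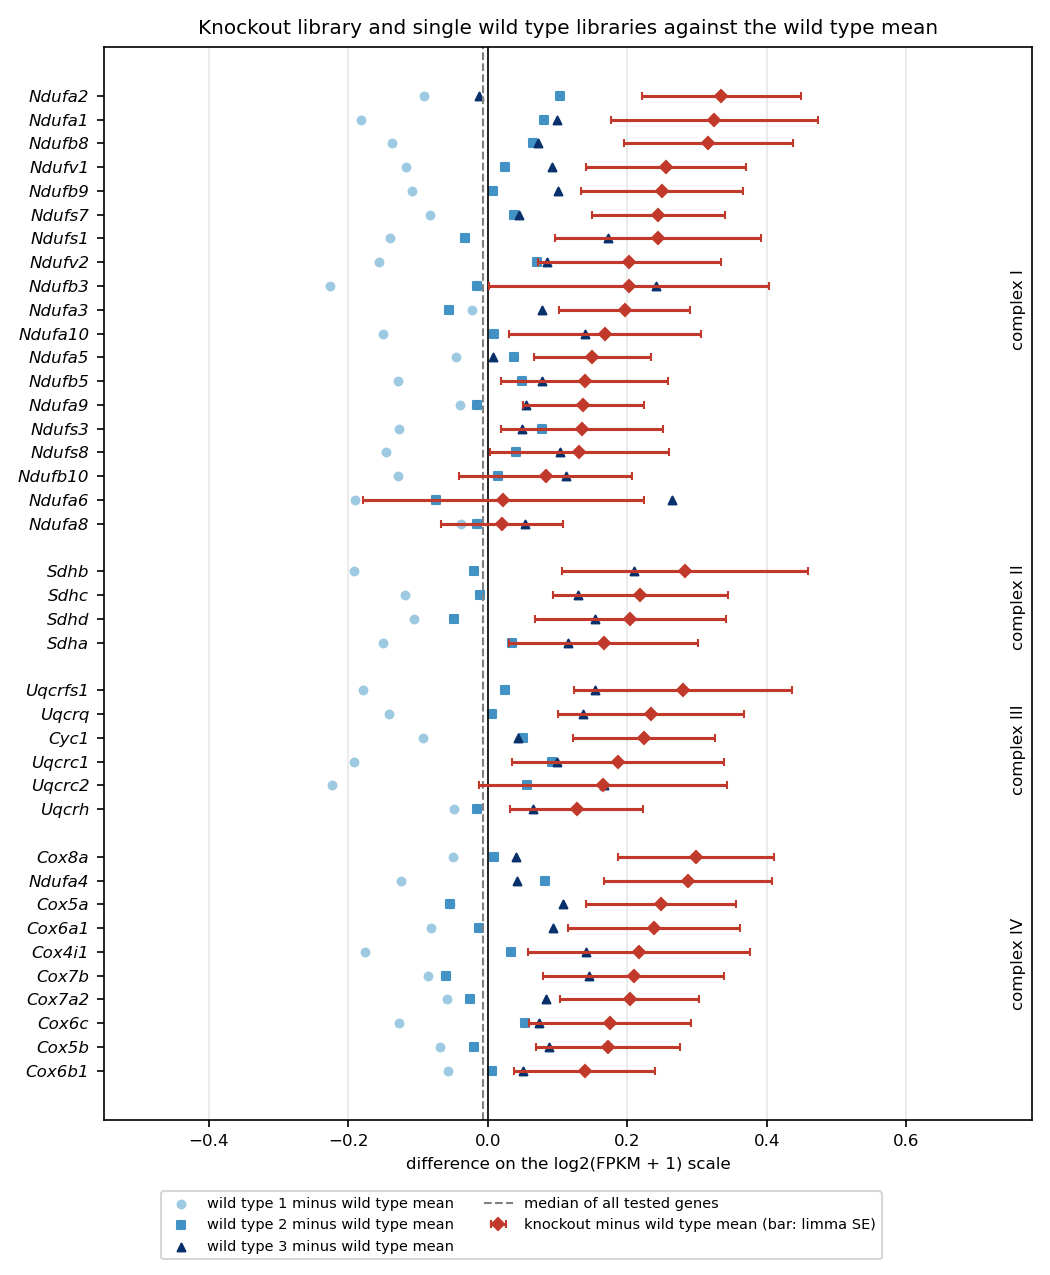
Difference of the knockout library (diamond, bar: limma SE) and of each wild type library (blue symbols) from the wild type mean of the same gene on the log2(FPKM + 1) scale; the dashed line is the median of all tested genes. With values as deposited every diamond lies right of 0 (35 of 39 with the same FPKM total), and most wild type replicate 1 symbols lie left of 0 and most replicate 3 symbols right of it.

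Set against single wild type libraries as deposited, the difference was largest against replicate 1 and smallest against replicate 3. All 39 members were higher in the knockout library than in wild type replicate 1, with a median difference of 0.32, and 40.8% of all tested genes were. All 39 were higher than in replicate 2 (median 0.21, 49.5% of all tested genes), and 34 were higher than in replicate 3 (median 0.09, 54.3%). The FPKM total was also higher in the knockout library than in replicate 3 (304430 against 285320), and these single-library values are given as deposited only. Relative to summed FPKM, the members made up 0.731% of the knockout library and 0.717% of replicate 3. By complex, the medians against replicate 3 were 0.09 for complex I, 0.06 for complex II, 0.09 for complex III and 0.11 for complex IV. The wild type libraries also differed among themselves: the members' median difference was 0.21 for replicate 3 minus replicate 1, 0.14 for replicate 2 minus replicate 1 and 0.08 for replicate 3 minus replicate 2. The median against replicate 3 (0.09) was close to the last of these, and the median against replicate 1 (0.32) was above all 3. Wild type replicate 1 was the lowest of the 4 libraries for 37 of 39 members (18.5% of all tested genes). Replicate 3 was the highest wild type library for 34 of 39 (22.3% of all tested genes). In 27 of 39 members as deposited the libraries stood in the order replicate 1, replicate 2, replicate 3, knockout. This order was found in 6.10% of all tested genes. The summed FPKM of the libraries stood in the same order, at 267390, 279290, 285320 and 304430, and the count of 27 is given as deposited only.

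The proximal tubule markers, genes of a kidney cell type rich in mitochondria, varied along the same libraries. The summed level of the 16 markers, all in the table and none at 0 in all libraries, was 4510 FPKM in the knockout and 1391, 3553 and 5390 FPKM across wild type replicates 1 to 3. Most of each sum came from the gene Kap, at 3453 FPKM in the knockout and 1006, 2820 and 4294 FPKM in wild type. The knockout library stood inside the wild type range for this sum, whereas for the summed members it stood above it, at 2224 FPKM against 1768, 1929 and 2046 FPKM. The median difference of the 16 markers was 0.59, with 6 above every wild type library, 0 below every one, and 0 called by limma or at an unadjusted p under 0.05. Against replicate 3 alone their median was -0.08, where that of the members was 0.09. Thick ascending limb markers (4 genes, 1 above and 0 below every wild type library) summed to 533 FPKM against 385, 702 and 613 FPKM. Distal convoluted and connecting tubule markers (4 genes, 1 above and 1 below every wild type library) summed to 41.47 FPKM against 30.26, 38.46 and 41.54 FPKM. Intercalated cell markers (5 genes, 0 above and 1 below) summed to 43.4 FPKM against 49.4, 41.6 and 42.0 FPKM. Collecting duct principal cell markers (5 genes, 2 above and 1 below) summed to 82.0 FPKM against 60.5, 81.3 and 67.1 FPKM. Podocyte markers (4 genes, 0 above and 0 below) summed to 109 FPKM against 136, 97.9 and 86.8 FPKM. Fibroblast and myofibroblast markers lay below every wild type library in 8 of 8 (327 FPKM against 726 to 848; 3 passed limma's test), and 5 of 6 plasma cell markers above it (4563 FPKM against 133 to 213; 4 passed). Endothelial markers lay below every wild type library in 6 of 6 (65.7 FPKM against 84.4 to 108; 0 passed limma's test, 3 at an unadjusted p under 0.05) and urothelial markers in 5 of 5 (5.63 FPKM against 54.4, 59.4 and 12.3; 0 passed, 0 unadjusted). T cell markers lay above it in 5 of 6 (28.5 FPKM against 15.01 to 23.99; 0 passed, 2 unadjusted), and all 7 macrophage markers lay inside the wild type range (979 FPKM against 652 to 1100). Of all tested genes, 31.2% lay below every wild type library and 28.0% above. By limma 0.083% were called lower and 0.64% higher, and 10.8% had an unadjusted p under 0.05. None of these cell type markers was listed at 0 in all libraries, and the part of any of these cell types in the members' values was not tested. In whole tissue, fewer cells of a type and less RNA per cell cannot be told apart.

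**Figure D3:**
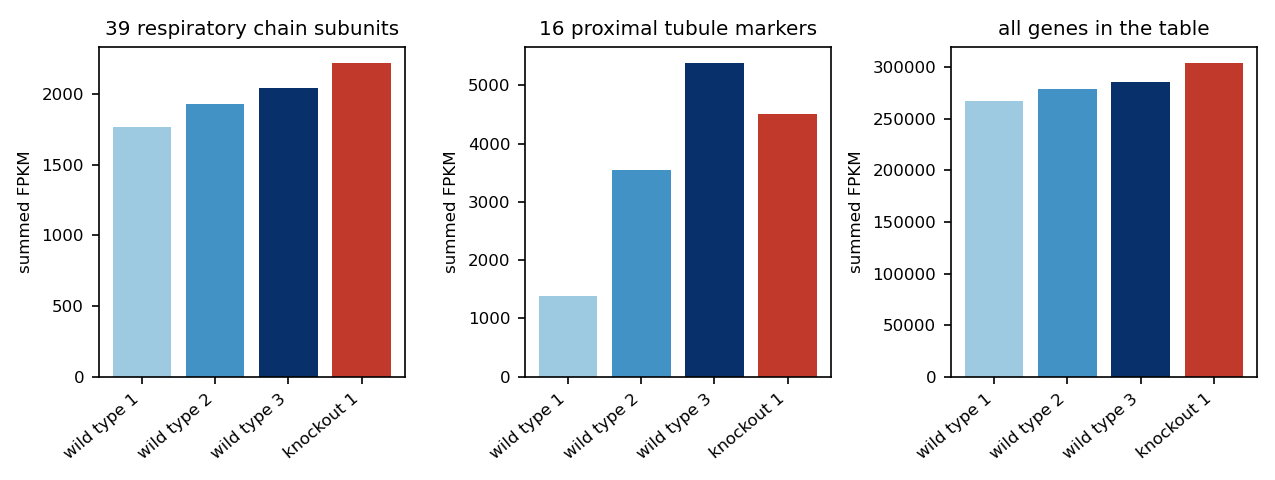
Summed FPKM per library (bars, from 0) of the 39 subunits, of the 16 proximal tubule markers and of all genes in the table. The subunits and the total are highest in the knockout library, while the tubule marker sum, most of it from Kap, is highest in wild type replicate 3.

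As a share of the summed FPKM, which does not move with the scaling of a library, the 39 members made up 0.731% of the knockout library and 0.690% ± 0.028 (SD, n = 3) of the wild type libraries, which ran from 0.661% to 0.717%. With immunoglobulin genes left out of the sum, the share was 0.777% against 0.691% ± 0.028. Complex IV made up 0.343% against 0.321% ± 0.0088, complex I 0.214% against 0.204% ± 0.0093, complex III 0.102% against 0.0976% ± 0.0056 and complex II 0.0711% against 0.0676% ± 0.0047. For complexes I and IV the knockout share was above all 3 wild type shares. For complexes II and III it was below that of wild type replicate 3 (0.0727% and 0.1025%).

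The other genes of oxidative metabolism were described with lists that do not overlap the members. Unless stated, values of these lists and those that follow are given as deposited only. The shares of all tested genes apply to these lists and those that follow. They were 28.0% above every wild type library, 31.2% below, 0.723% called by limma and 10.8% at an unadjusted p under 0.05. Of 23 further nuclear subunits of complexes I, III and IV with cytochrome c, 23 had a positive difference, 16 lay above every wild type library, 0 below, and 0 passed limma's test (median 0.15; 3 at an unadjusted p under 0.05). Uqcr10, a small complex III subunit, had the largest difference among them, at 93.3 FPKM in the knockout and 60.1, 67.5 and 77.0 FPKM across wild type replicates 1 to 3 (0.45, SE 0.16, limma adjusted p = 0.449). Ndufb6, of complex I, was at 58.2 against 46.4 ± 2.73 FPKM (SD, n = 3), and Ndufb1, listed as Ndufb1-ps, at 16.2 against 16.1 ± 0.97 FPKM. Uqcr11, of complex III, was at 38.4 FPKM against 33.8, 34.5 and 41.6 FPKM, inside the wild type range. Of 18 ATP synthase subunits 17 lay above every wild type library (median 0.17, 0 called by limma and 0 at an unadjusted p under 0.05), from Atp5k at 33.9 FPKM against 27.3 ± 2.13 FPKM (SD, n = 3) to Atp5o at 43.6 against 41.2 ± 2.07 FPKM. Citric acid cycle enzymes had a median of 0.18 (10 of 13 above every wild type library, 0 called and 0 at an unadjusted p under 0.05), and Mdh2, malate dehydrogenase, had the smallest difference among them, at 33.8 against 33.7 ± 1.24 FPKM (SD, n = 3).

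The 13 protein-coding genes of the mitochondrial genome had a median difference of 0.23, with 6 above every wild type library and 0 called by limma, also 0 at an unadjusted p under 0.05. Against single wild type libraries their median was 0.54, 0.21 and -0.02 for replicates 1, 2 and 3, a wider range than that of the nuclear members. mt-Nd1 was at 4811 FPKM against 3013, 3647 and 4196 FPKM, the largest difference of this list. mt-Atp6 was at 3994 FPKM against 2960, 3672 and 4123 FPKM, the smallest. Both were lowest in wild type replicate 1, as 37 of the 39 nuclear members were.

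As deposited, lists of mitochondrial gene expression and assembly had smaller medians, and cytosolic ribosomal protein genes one of the opposite sign. With the same FPKM total the median of the cytosolic ribosomal protein genes was -0.19 and that of all tested genes -0.11. The other lists are given as deposited only, so their signs and counts hold for that scale. Assembly factors of complexes I to IV had a median of 0.12 over 42 tested genes (27 above every wild type library, 1 below, 0 called, 2 at an unadjusted p under 0.05). Sdhaf1, needed to place iron-sulfur clusters in Sdhb, was at 7.08 FPKM against 3.52, 4.73 and 5.80 FPKM (0.53, SE 0.25, limma adjusted p = 0.541), and Lyrm7, which assists the Rieske protein, at 0.53 FPKM against 0.68, 0.50 and 1.34 FPKM. Large subunit genes of the mitochondrial ribosome had a median of 0.07 (14 of 22 above every wild type library, 0 called, 1 at an unadjusted p under 0.05), from Mrpl12 at 36.1 against 27.1 ± 2.40 FPKM (SD, n = 3) to Mrpl9 at 14.8 against 15.4 ± 0.61 FPKM. Cytosolic ribosomal protein genes, which like the members are short and highly expressed, had a median of -0.05, with 0 of 32 above every wild type library, 15 below (31.2% of all tested genes) and 0 called, also 0 at an unadjusted p under 0.05. Rps19 was at 40.8 against 38.2 ± 4.34 FPKM and Rpl14 at 93.4 against 105.95 ± 6.70 FPKM, the ends of this list. The longest coding transcript had a median length of 983 nt among the members and 2672 nt among tested genes. Among the 39 members the difference had a Spearman's rho of -0.04 with transcript length and 0.22 with wild type level, while level and length had one of -0.42, as descriptions over members that share their libraries.

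**Figure D4:**
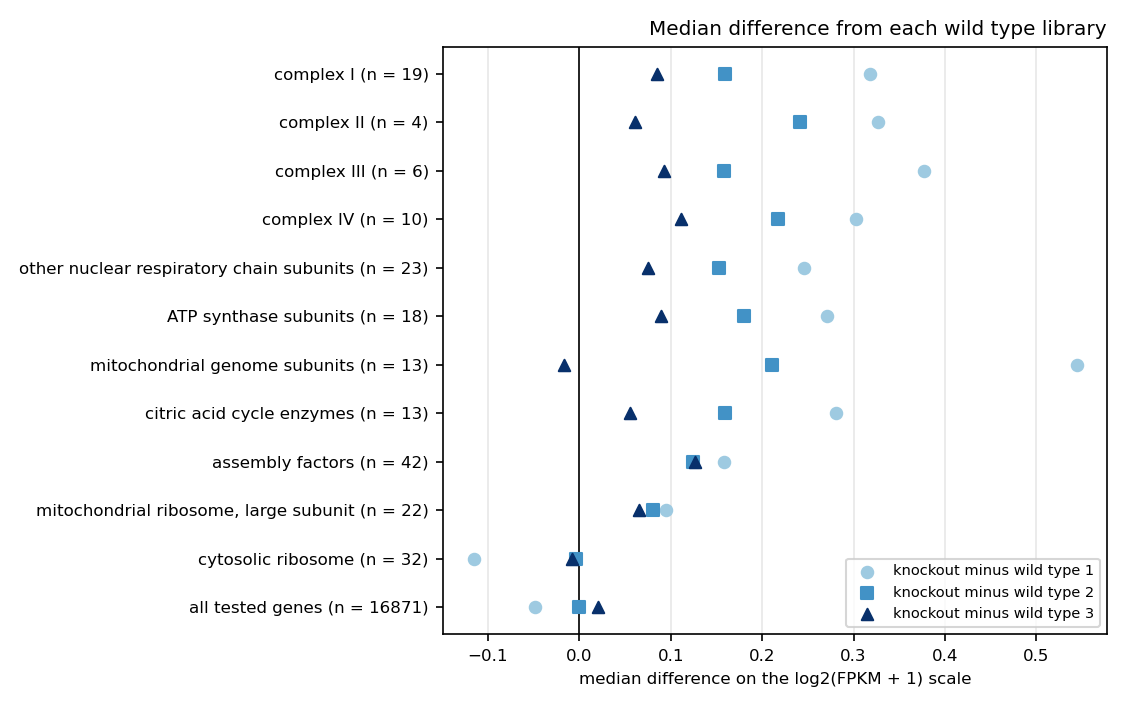
Median difference of the knockout library from wild type replicate 1 (circle), 2 (square) and 3 (triangle) for each complex, for other gene lists and for all tested genes, on the log2(FPKM + 1) scale. Values are as deposited. The 3 symbols are spread apart for the complexes and most widely for the mitochondrial genome, and lie close together for assembly factors and the mitochondrial ribosome.

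Genes of regulators did not show a common direction. Of 18 regulators of mitochondrial biogenesis, 8 lay above every wild type library, 4 below, and 0 passed the test (median 0.09; 3 at an unadjusted p under 0.05). Ppargc1a, the coactivator PGC-1alpha, was at 6.73 FPKM in the knockout and 4.76, 5.58 and 6.33 FPKM across wild type replicates 1 to 3, the same order of libraries as most members (0.24, SE 0.16, limma adjusted p = 0.651). Esrrg, an estrogen-related receptor that acts on mitochondrial genes, had the largest difference, at 10.5 FPKM against 7.41, 7.99 and 8.36 FPKM (0.37, SE 0.10, adjusted p = 0.360). The wild type values lay close together and the knockout value apart. Nrf1 and Gabpa, whose motif letters are given above, were at 2.45 against 2.29 ± 0.24 FPKM (SD, n = 3) and at 10.3 against 10.6 ± 0.31 FPKM. Hif1a, the hypoxia-inducible factor, had the most negative difference, at 22.2 FPKM against 30.7, 29.8 and 29.8 FPKM (-0.42, SE 0.08, adjusted p = 0.254).

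Tissue-restricted and condition-dependent isoforms were mostly low, and 5 of the 10 listed reached the filter, of which 0 passed limma's test and 2 had an unadjusted p under 0.05. Ndufa4l2, a hypoxia-responsive relative of Ndufa4, was at 5.69 FPKM in the knockout and 9.74, 13.1 and 8.28 FPKM across wild type replicates 1 to 3 (-0.74, SE 0.25, limma adjusted p = 0.439). The knockout value lay below every wild type library, where that of Ndufa4 lay above. Cox7a1, the heart and muscle form beside the member Cox7a2, was at 2.10 FPKM against 1.56, 1.45 and 1.49 FPKM. Cox4i2, the oxygen-responsive form beside Cox4i1, was at 0.71 against 0.76 ± 0.31 FPKM (SD, n = 3). Cox7a2l, a factor of supercomplex assembly, was at 70.0 FPKM against 69.7, 70.7 and 74.7 FPKM, nearly level in all libraries.

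Of the alternatives run, equal FPKM totals gave the smallest median of the members. With libraries brought to the same FPKM total, the median of all tested genes moved to -0.11 and that of the members to 0.07, which left the members 0.18 above the median of all genes, against 0.21 as deposited. This gap was 0.15 under quantile normalization, 0.20 with immunoglobulin genes removed before scaling, and 0.14, 0.21 and 0.27 without wild type replicates 1, 2 and 3. With equal FPKM totals 17 members, not 34, lay above every wild type library, while 13.8% of all tested genes were above every wild type library. When immunoglobulin genes were removed first, the members' median was 0.16 and 34 lay above every wild type library. Without wild type replicate 1 the median was 0.15, without replicate 2 0.20 and without replicate 3 0.25. No member passed limma's test under any of the 10 alternatives. In simulated data with 1 library against 3, limma called 0 of 200 genes with a true difference of 0.2. The test can thus miss differences of the members' median size.

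**Figure D5:**
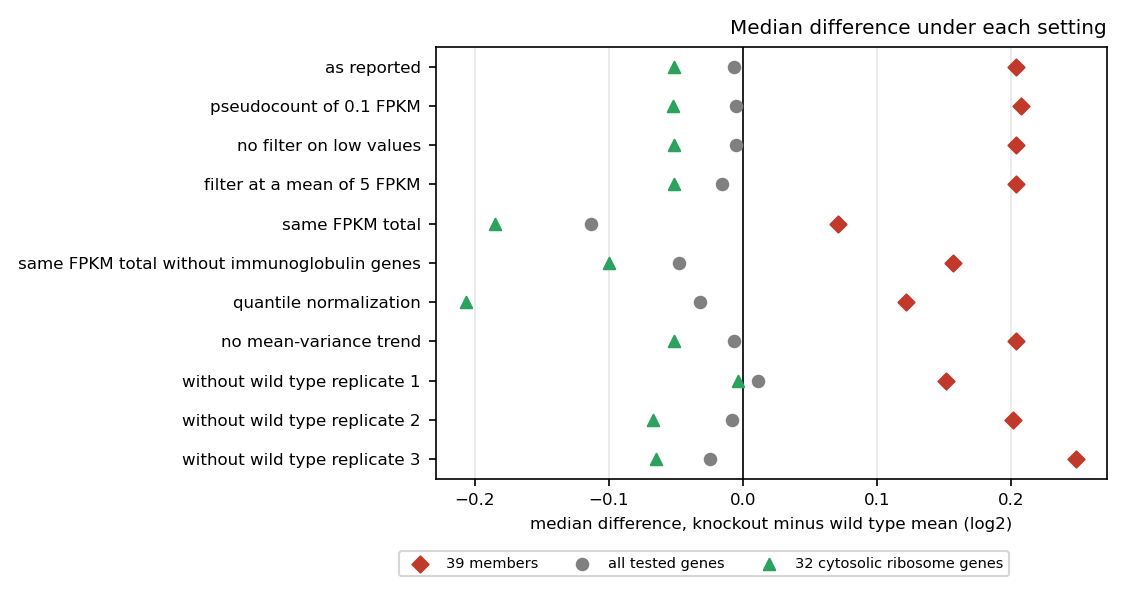
Median difference (knockout minus wild type mean, log2) of the 39 members, of 32 cytosolic ribosome genes and of all tested genes under each setting. The members' median stays above 0 and right of both other medians in each row, and is smallest, at 0.07, with the same FPKM total.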

How the data were processed

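Messenger RNA of whole obstructed kidneys was measured by sequencing. Per the submitters' processing notes, cutadapt 1.9, FastQC and HISAT2 2.0.4 were used and the build was mm10; their roles, and the program that estimated expression, are not stated there. Per the file headers, the deposited table gives FPKM per gene and library, rounded to 2 decimals, and the authors' own fold change (a ratio), log2 fold change, p-value and q-value, from a test that is not given. It holds no counts, low values showed no clear steps of whole reads, and depth is unknown. Columns were matched to samples by title. A comparison of 1 knockout with 3 wild type libraries was fitted to log2(FPKM + 1) with limma 3.58.1 (R 4.3.3; mean-variance trend; filter at a mean of 0.5 FPKM; 2 residual and 2.32 prior degrees of freedom), and the fit was tested on simulated data. Lists were described by counts and medians. Gene coordinates and transcript lengths came from GENCODE M21 (mm10), and older symbols of 15 ATP synthase and complex I genes were matched through RefSeq synonyms. Counting by strand is not stated, and 16 members overlap another annotated gene. Members and lists were chosen with earlier results of these data known. Named were, by complex, members with the largest and smallest difference and level, all of complex II, chosen catalytic or regulatory subunits, and of other lists the extremes, except an item that is not reported here; Uqcrc2, Ndufb3, Ndufb10 and further members and list genes were named after their values were seen. Alternatives covered pseudocount, filter, scaling, trend and each wild type replicate left out.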

Additional observations from a re-analysis of the deposited data

How the results depend on the processing

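Of the 39 differences, all kept their sign with a pseudocount of 0.1 FPKM, no filter, a filter at a mean of 5 FPKM, no mean-variance trend and without wild type replicate 3. With the same FPKM total the members' median was 0.0712, those of complexes I to IV were 0.067, 0.0796, 0.0743 and 0.0795, 17 members lay above every wild type library, and Ndufb10 (-0.0485), Ndufa6 (-0.108), Ndufa8 (-0.111) and Uqcrh (-0.0055) turned negative. Without immunoglobulin genes in the total, Ndufa6 (-0.0242) and Ndufa8 (-0.0265) did. With quantile normalization 22 members lay above every wild type library, the median of complex IV was 0.0907, and Ndufb10 (-0.018), Ndufa6 (-0.0428), Ndufa8 (-0.0777) and Cox6a1 (-0.000336) turned negative. Ndufa6 ran from -0.0729 without wild type replicate 1, through -0.0149 without replicate 2, to 0.155 without replicate 3. Leaving out 1 wild type library, the members' median ran from 0.151 to 0.249 and the number above every remaining wild type library from 34 to 39. The 2 alternatives that need further knockout columns were not run. No paired analysis was possible because the groups share 1 replicate number among the columns analysed. The cause of these shifts was not tested beyond the rescaling itself. Depth is unknown, and 1 knockout library sets the precision.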
